A study of Mus musculus with 11 samples.

Results

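Type I interferon response genes are described here across 2 lymphoid tissues and 3 genotypes of immunised mice. The list holds 46 genes, chosen by symbol, and 45 of them were in the deposited table of 10885 genes. Mx1 was not analysed here. By role the 45 were 11 nucleic acid sensors, 3 transcription factors, 6 genes of the ISG15 system and of ubiquitin ligation, 5 genes of ADP-ribosylation, and 20 interferon-induced effectors and other response genes.

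RNA-seq had been done on whole tissue cells of lymph node (LN) and spleen from 6 mice. KI mice (mice 5 and 6) carried the Igk-BCL2 knock-in, which places the anti-apoptotic gene BCL2 at the immunoglobulin kappa light chain locus. Tg mice (mice 3 and 4) carried the 3'RR-BCL2 transgene, in which the 3' regulatory region (3'RR) of the Igh locus drives BCL2, and Wt mice (mice 1 and 2) were wild-type. Both loci are active in B lineage cells, so each model places BCL2 in those cells, while the libraries held every cell type of the tissue. All 6 mice, Wt included, had been injected intraperitoneally with sheep red blood cells, an antigen that raises germinal centres, repeatedly over 3 months, and tissue was collected 1 month after the third injection. The sources used here gave no age, strain or sex of the mice. Mouse 3 was analysed for LN alone, so there were 11 libraries: 2 each of LN KI, LN Tg, LN Wt, spleen KI and spleen Wt, and 1 of spleen Tg.

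Type I interferons are secreted proteins that cells make when they detect viral or misplaced nucleic acid. They bind the receptor Ifnar1/Ifnar2, whose kinases Jak1 and Tyk2 phosphorylate transcription factors of the STAT family, among them Stat2. With Irf9 these form a complex that enters the nucleus and binds the interferon-stimulated response element (ISRE) in the promoters of response genes. Many response genes encode the sensors and transcription factors of the pathway itself, so the response can feed on its own products. In lymphoid tissue, plasmacytoid dendritic cells are known as strong producers of type I interferon.

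Values are the authors' normalised signals, that is gene counts divided by 1 size factor per library, with no correction for gene length, so levels are not compared between genes. LN depth lay between 11128568 and 21067988 recovered reads and spleen depth between 18994455 and 24110325. Differences are on the log2(value + 1) scale and carry the standard error (SE) of a limma fit over all 11 libraries. A gene was called at a Benjamini-Hochberg adjusted p under 0.05 over all 10885 genes. T cell markers stood higher in LN than in spleen of Wt mice for 10 of 10 genes, which is the usual difference between these tissues. Macrophage and monocyte markers were lower in LN for 11 of 14 and higher for 2, Marco and Siglec1. Of all genes 3.09% were called higher in LN of Wt mice and 6.29% lower. Wt mouse 1 was female by Xist, at 12314 in LN and 14513 in spleen, and the other 5 mice expressed the Y-linked Ddx3y. Bcl2 itself, the mouse gene, had 1246 and 1664 in LN of KI mice and 2338 and 2716 in LN of Wt mice. Whether reads of the inserted BCL2 were counted there was not tested.

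The ISRE, the element through which the response is driven, was searched as the core GAAANNGAA on both strands of RefSeq promoter windows. A window ran from 250 bases before to 50 bases after an annotated start on GRCm38.p6. Windows existed for 35 of the 45 genes, 48 windows in all, because some genes have several starts. At least 1 core stood in windows of 20 of the 35 genes (57.1%), against 772 of the 8496 table genes with a window (9.09%). Counted by window the shares were 45.8% for the response genes and 7.53% for all genes of the table. At least 2 cores stood in 27.1% of the response windows and in 0.627% of the table's windows; cores that overlap each other were counted separately.

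The sequences that follow show what these matches look like in genes described further on, with the cores in capitals. Oas1a (chr5:120907476-120907775, minus strand), Stat2 (chr10:128270248-128270547, plus strand) and Slfn8 (chr11:83020761-83021060, minus strand, the first of its 2 windows) are whole windows. Each is of the gene with the smallest p of its role in KI minus Wt lymph node, among genes with a window. The same rule also picked Herc6 and Parp12, whose windows held no core and are not shown. Isg15 (chr4:156200861-156200911, minus strand), Ifit1 (chr19:34640765-34640828, plus strand) and Ifit3 (chr19:34583359-34583450, plus strand) are the stretches around the cores in the 3 genes that hold 3 of them, a choice made after the matches had been counted. Where the capitals run on, 2 or more cores overlap or touch; a core read from the other strand appears as TTCNNTTTC.

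Oas1a: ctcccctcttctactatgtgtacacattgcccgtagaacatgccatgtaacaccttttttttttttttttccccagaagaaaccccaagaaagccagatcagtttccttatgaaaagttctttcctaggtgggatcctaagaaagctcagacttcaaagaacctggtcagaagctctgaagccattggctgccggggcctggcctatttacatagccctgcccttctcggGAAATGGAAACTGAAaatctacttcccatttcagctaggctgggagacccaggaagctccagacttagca

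Stat2: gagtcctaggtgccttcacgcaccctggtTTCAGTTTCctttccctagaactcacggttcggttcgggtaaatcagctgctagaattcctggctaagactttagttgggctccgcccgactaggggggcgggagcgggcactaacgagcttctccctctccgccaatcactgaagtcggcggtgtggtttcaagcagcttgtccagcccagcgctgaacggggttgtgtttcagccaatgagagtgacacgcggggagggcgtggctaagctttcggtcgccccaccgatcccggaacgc

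Slfn8: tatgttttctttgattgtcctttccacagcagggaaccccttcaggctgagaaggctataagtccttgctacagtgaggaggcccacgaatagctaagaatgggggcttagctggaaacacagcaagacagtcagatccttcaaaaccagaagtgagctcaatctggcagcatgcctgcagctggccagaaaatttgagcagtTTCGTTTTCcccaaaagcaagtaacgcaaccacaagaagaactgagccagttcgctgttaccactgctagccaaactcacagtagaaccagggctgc

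Isg15: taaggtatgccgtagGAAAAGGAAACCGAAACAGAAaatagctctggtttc

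Ifit1: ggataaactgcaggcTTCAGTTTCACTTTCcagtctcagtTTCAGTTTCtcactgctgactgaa

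Ifit3: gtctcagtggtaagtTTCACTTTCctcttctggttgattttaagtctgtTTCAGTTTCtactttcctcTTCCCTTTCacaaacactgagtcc

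The first base of the 2 Oas1a cores lay 20 and 14 bases before the start, and that of the Isg15 cores 78, 72 and 66 bases before it. The single Stat2 core lay farther out, at 221 bases before the start. Over all windows of the response genes there were 38 cores, 28 of them starting before the annotated start and 10 after it. The core of the gamma-activated site, TTCNNNGAA, the element of the interferon gamma response, was in 16.7% of the response windows and 6.76% of the table's windows. A total of 5 response windows held both motifs, overlapping in 2 of them. A match is a string of letters and not a measured binding site. Genes with a window but no ISRE core were Oasl1, Oasl2, Irf7, Irf9, Herc6, Parp12, Dtx3l, Ifit2, Isg20, Cmpk2, Xaf1, Ifi35, Ifi47, Sp100 and Lgals3bp.

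**Figure D1:**
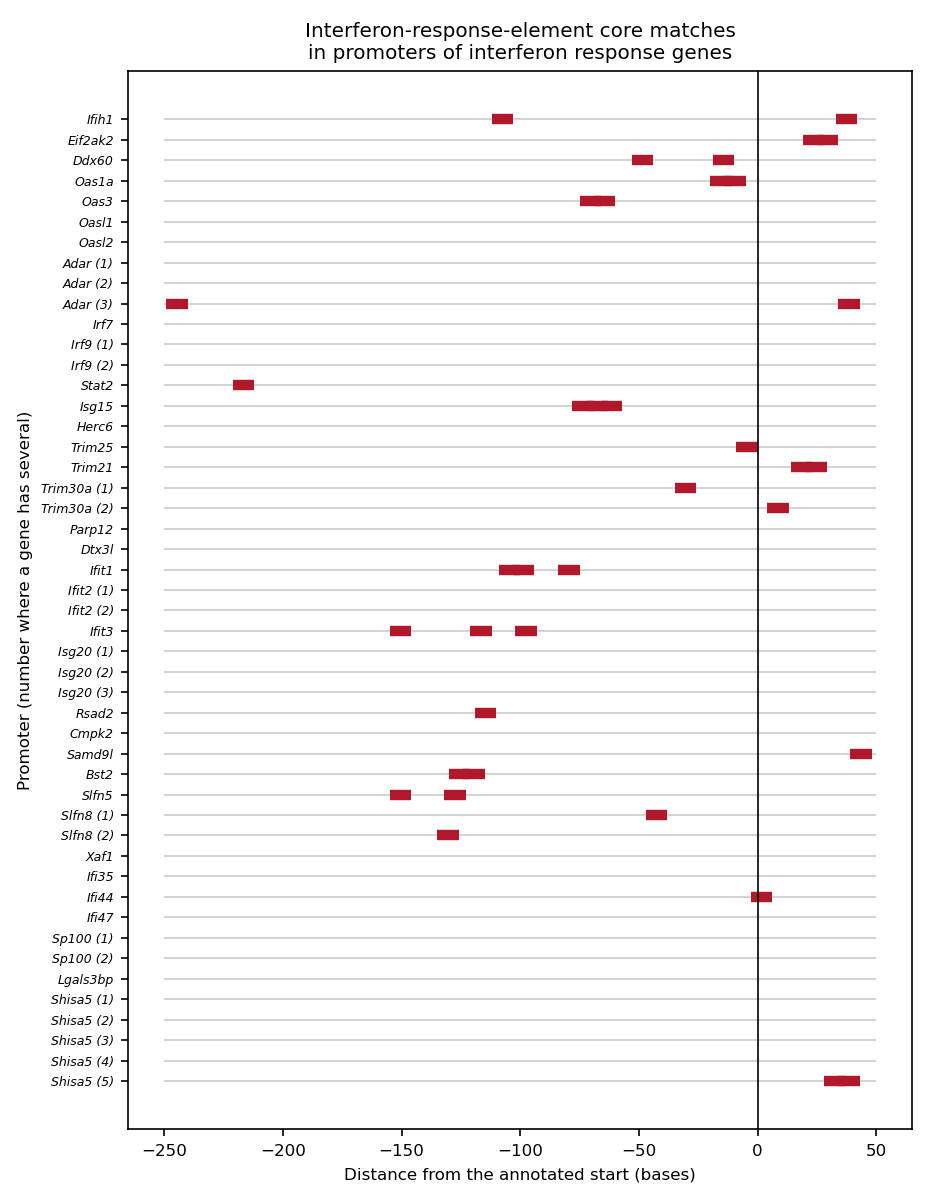
ISRE core matches (red bars) in the 48 RefSeq windows of the 35 genes that have one, with bases from the annotated start on the horizontal axis and 1 line per window. Most of the 38 matches, 28, start before the annotated start; Isg15, Ifit1 and Ifit3 have 3 each.

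In lymph nodes the response genes were higher in KI than in Wt mice almost throughout: 40 of 45 rose, none fell, and the median difference was 1.53, a 2.89-fold change. Among all 10885 genes tested 13.8% were called higher and 12.2% lower, and the median difference was -0.02. Scaled without immunoglobulin and haemoglobin genes, the calls over all genes were 2107 higher and 853 lower, where the authors' scaling gave 1502 and 1331; the median of all genes moved to 0.11 and that of the response genes to 1.67. Both KI libraries lay above both Wt libraries for 42 of the 45 genes, against 32% of all genes. The lowest KI value was more than 2-fold above the highest Wt value in 22 of the 45 (48.9%), against 4.74% of all genes. The KI mean exceeded the Wt mean more than 2-fold in 31 genes, more than 4-fold in 17 and more than 8-fold in 6. The 5 genes not called were Ifi47, Ly6e, Parp10, Sp100 and Shisa5.

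**Figure D2:**
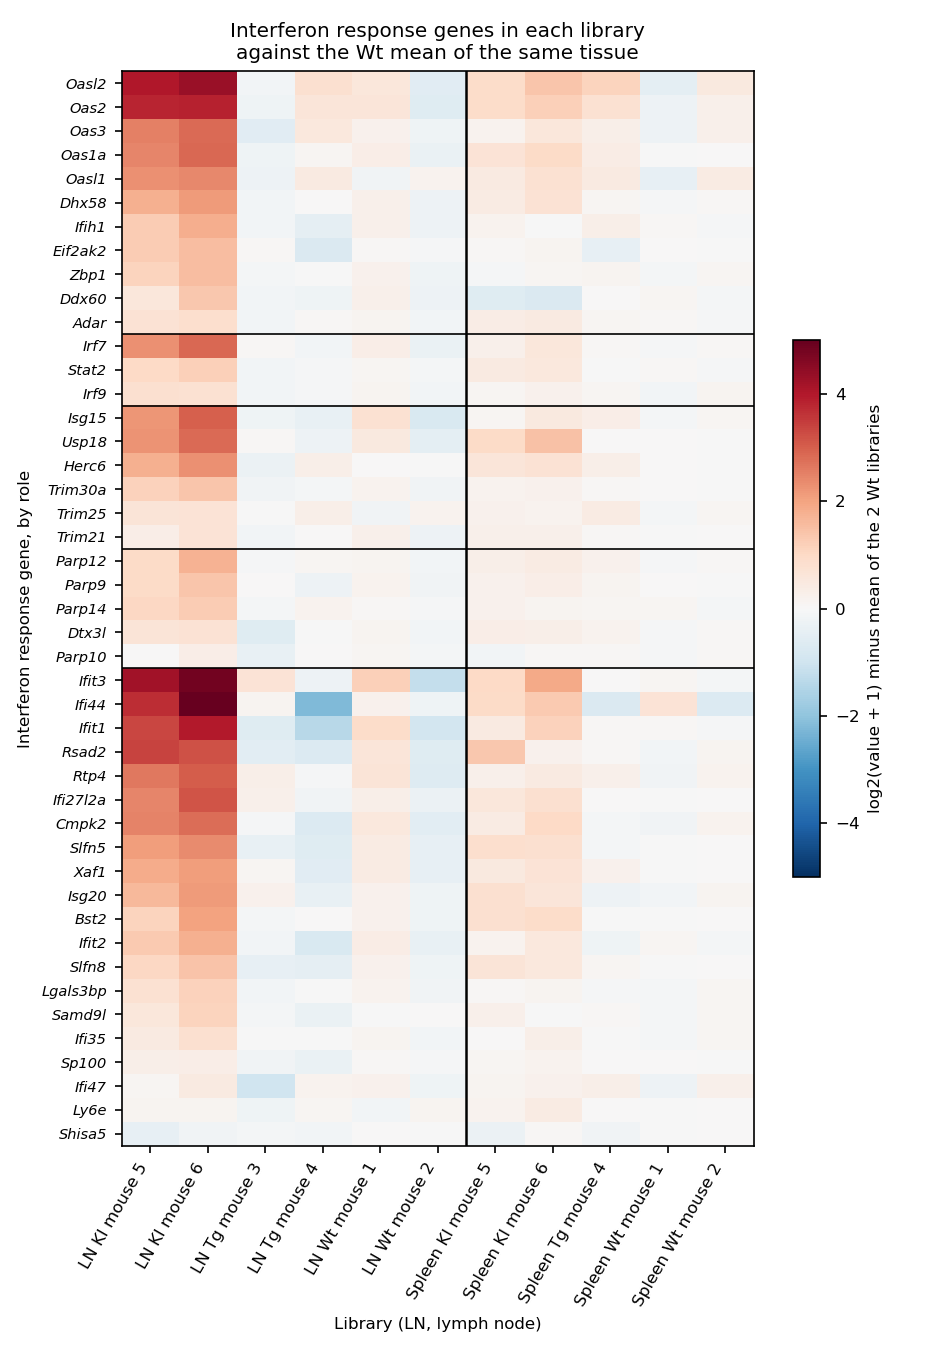
Each of the 45 genes (rows, by role) in each of the 11 libraries (columns), as log2(value + 1) minus the mean of the 2 Wt libraries of the same tissue. The 2 LN KI columns are red in 44 rows each, with a median of 1.77 for mouse 6, while the LN Tg columns have medians of -0.13 and -0.08 and the spleen KI columns 0.27 and 0.45.

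All 11 sensors rose in KI lymph nodes, with a median difference of 1.94. Oas1a, an oligoadenylate synthetase that activates RNase L on double-stranded RNA, had 833 and 1115 in LN of KI mice, 130.2 and 165 in LN of Tg mice and 190.3 and 123 in LN of Wt mice. Both KI libraries stood far above the other 4, and the Tg and Wt values overlapped. Against Wt alone, both KI libraries lay above for 32% of all genes. The KI minus Wt difference was 2.65 ± 0.24 (limma adjusted p = 5.18e-05). Dhx58 (LGP2), the helicase that tunes the RIG-I-like receptors, had 1107 and 1417 in KI, 294 and 332 in Tg and 384 and 276 in Wt lymph nodes, a KI minus Wt difference of 1.94 ± 0.19 (limma adjusted p = 8.48e-05).

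Zbp1, which recognises nucleic acid in the Z conformation and can start necroptosis, had 2059 and 2798 in KI, 889 and 949 in Tg and 1093 and 827 in Wt lymph nodes. Ifih1 (MDA5), the sensor of long double-stranded RNA, had 608 and 881 in KI, 228 and 184 in Tg and 299.9 and 211 in Wt lymph nodes. Neither gene's KI values overlapped those of Tg or Wt. Against Wt alone, both KI libraries lay above both Wt libraries for 32% of all genes. The differences from Wt were 1.33 ± 0.17 for Zbp1 and 1.54 ± 0.22 for Ifih1 (limma adjusted p = 0.000383 and 0.000826).

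The other oligoadenylate synthetase genes differed by 4.17 (Oasl2), 3.83 (Oas2), 2.69 (Oas3) and 2.36 (Oasl1), and with Oas1a they had the 5 largest differences among the sensors. Oasl2 had 1220.5 and 1504 in KI against 109.7 and 50.3 in Wt lymph nodes. Smaller differences were those of Eif2ak2 (the kinase PKR, which halts translation on double-stranded RNA), at 1.39, the helicase Ddx60, at 0.96, and Adar, which edits adenosine in double-stranded RNA, at 0.79. The Adar values were 4419.8 and 4786 in KI and 2951 and 2406 in Wt lymph nodes, the smallest difference among the sensors (limma adjusted p = 0.00117). Here too both KI libraries lay above both Wt libraries, as for 32% of all genes.

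All 3 transcription factors rose in KI lymph nodes. Irf7, the factor that drives the interferon alpha genes and is itself a response gene, had 4428 and 6664 in KI, 943 and 814 in Tg and 1140.1 and 717 in Wt lymph nodes. That is 6 times the Wt level (2.59 ± 0.25, limma adjusted p = 0.000307). Stat2 had 3368 and 3839 in KI, 1557 and 1648 in Tg and 1804 and 1595 in Wt lymph nodes, and its replicates lay close together (1.08 ± 0.11, limma adjusted p = 9.95e-05). Irf9, the DNA-binding partner of Stat2, had 3502 and 3467 in KI against 2209 and 1853 in Wt lymph nodes (0.78 ± 0.12, limma adjusted p = 0.00113). Neither Stat2 nor Irf9 overlapped between KI and Wt, and for 32% of all genes both KI libraries likewise lay above both Wt libraries.

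All 6 genes of the ISG15 system and ubiquitin ligation rose. Isg15, a ubiquitin-like protein that is attached to others and also secreted, had 502 and 847 in KI, 93.4 and 82.7 in Tg and 181 and 63.4 in Wt lymph nodes (2.59 ± 0.45, limma adjusted p = 0.00361). The 2 Wt lymph nodes differed more than 2-fold. Both lay below the lower KI value, as for 32% of all genes. Usp18, which removes ISG15 and restrains signalling at the interferon receptor, had 1418 and 2129.6 in KI against 411 and 211 in Wt lymph nodes (2.56 ± 0.33, limma adjusted p = 0.000853).

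Herc6, the mouse ligase that attaches ISG15, had 1346 and 1925 in KI against 405 and 385 in Wt lymph nodes (2.02 ± 0.21, limma adjusted p = 0.000114). Trim30a, a mouse tripartite-motif protein, had 4268 and 5069 in KI against 2193 and 1687 in Wt lymph nodes (1.27 ± 0.13, limma adjusted p = 0.000127). In both, the KI libraries lay above the Wt ones, as for 32% of all genes. Trim25, a ubiquitin ligase acting on RIG-I, and Trim21, a cytosolic antibody receptor and ligase, differed least, at 0.66 and 0.50. The Trim21 call (limma adjusted p = 0.0462) was lost in 13 of its 27 alternative settings.

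Of the 5 genes of ADP-ribosylation, 4 rose. Parp14 had 4793 and 5641 in KI, 2155 and 2619 in Tg and 2430.2 and 2217 in Wt lymph nodes (1.16 ± 0.13, limma adjusted p = 0.000172). Parp9 and Dtx3l, whose proteins act as a pair, differed by 1.18 ± 0.17 and 0.69 ± 0.16. Parp9 had 1937 and 2629.6 in KI and 1122 and 886 in Wt lymph nodes, and Dtx3l 2562 and 2738 in KI and 1790.0 and 1505 in Wt. Parp12, another member of the family, had 320.5 and 548 in KI and 181 and 149.9 in Wt lymph nodes (1.34 ± 0.24, limma adjusted p = 0.00262). For these 4 both KI libraries lay above both Wt libraries, as for 32% of all genes. Parp10, a mono-ADP-ribosyltransferase, overlapped between KI and Wt: it had 1886 and 2301 in KI and 1961 and 1723 in Wt lymph nodes (0.18 ± 0.15, limma adjusted p = 0.408).

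Among the 20 effectors and other response genes, 16 rose in KI lymph nodes. By the smallest p these were led by Ifi27l2a, Slfn8, Slfn5 and Isg20. Ifi27l2a had 2539.7 and 4147 in KI, 562 and 416 in Tg and 576 and 379 in Wt lymph nodes (2.79 ± 0.27, limma adjusted p = 0.000278). Slfn5 and Slfn8 belong to the Schlafen family, linked to growth arrest and to restriction of viruses. Slfn5 had 4999 and 5957 in KI against 1574 and 872 in Wt lymph nodes (2.22 ± 0.24, limma adjusted p = 0.00039). Slfn8 had 2947 and 3858 in KI against 1654 and 1244 in Wt lymph nodes (1.23 ± 0.15, limma adjusted p = 0.00036). Isg20, an exonuclease that degrades RNA, had 863 and 1229 in KI against 327 and 237 in Wt lymph nodes (1.88 ± 0.24, limma adjusted p = 0.000584). For all 4 genes every KI library lay above every Wt library, as for 32% of all genes.

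The effectors also held the largest differences, and the widest spread between mice. Ifit3, of a family of proteins that bind viral RNA or the proteins that do, had 1552 and 2381 in KI, 133 and 69.2 in Tg and 190.3 and 36.1 in Wt lymph nodes. Its difference was 4.51 ± 0.82, but the Wt mice themselves differed more than 5-fold, and its call (limma adjusted p = 0.0113) was lost without either LN KI library. Ifit1 had 891 and 1358 in KI and 163 and 45.9 in Wt lymph nodes (3.65 ± 0.58, limma adjusted p = 0.00349). Ifi44 had 211 and 519 in KI, 17.0 and 2.53 in Tg and 17.7 and 13.1 in Wt lymph nodes, where the lowest value stood for 3 reads (4.35 ± 0.79, limma adjusted p = 0.00281). Rsad2 (viperin, which makes a chain-terminating nucleotide) and its neighbour Cmpk2, a nucleotide kinase, differed by 3.29 ± 0.44 and 2.64 ± 0.38. The remaining called effectors ranged from 0.63 for Ifi35 to 2.82 for Rtp4, among them Bst2 (tetherin, which holds budding virus at the cell surface), at 1.57.

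Shisa5, an endoplasmic reticulum protein linked to apoptosis, was the single gene below Wt in KI lymph nodes. It had 30026 and 34956 in KI and 40514 and 38385 in Wt lymph nodes, groups that did not overlap, but the difference of -0.28 ± 0.14 was not called (limma adjusted p = 0.162). After quantile normalisation it was 0.05. Ly6e, a surface protein, had 21377 and 21664 in KI against 17822 and 21229 in Wt lymph nodes, a difference of 0.15 ± 0.14. Ifi47, an interferon-inducible GTPase, had 2377 and 3085 in KI and 2572 and 1951 in Wt, which overlapped. Sp100, a component of nuclear bodies, had 10524 and 10822 in KI and 9013 and 8264 in Wt lymph nodes and just missed the threshold (0.31 ± 0.11, limma adjusted p = 0.0539).

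**Figure D3:**
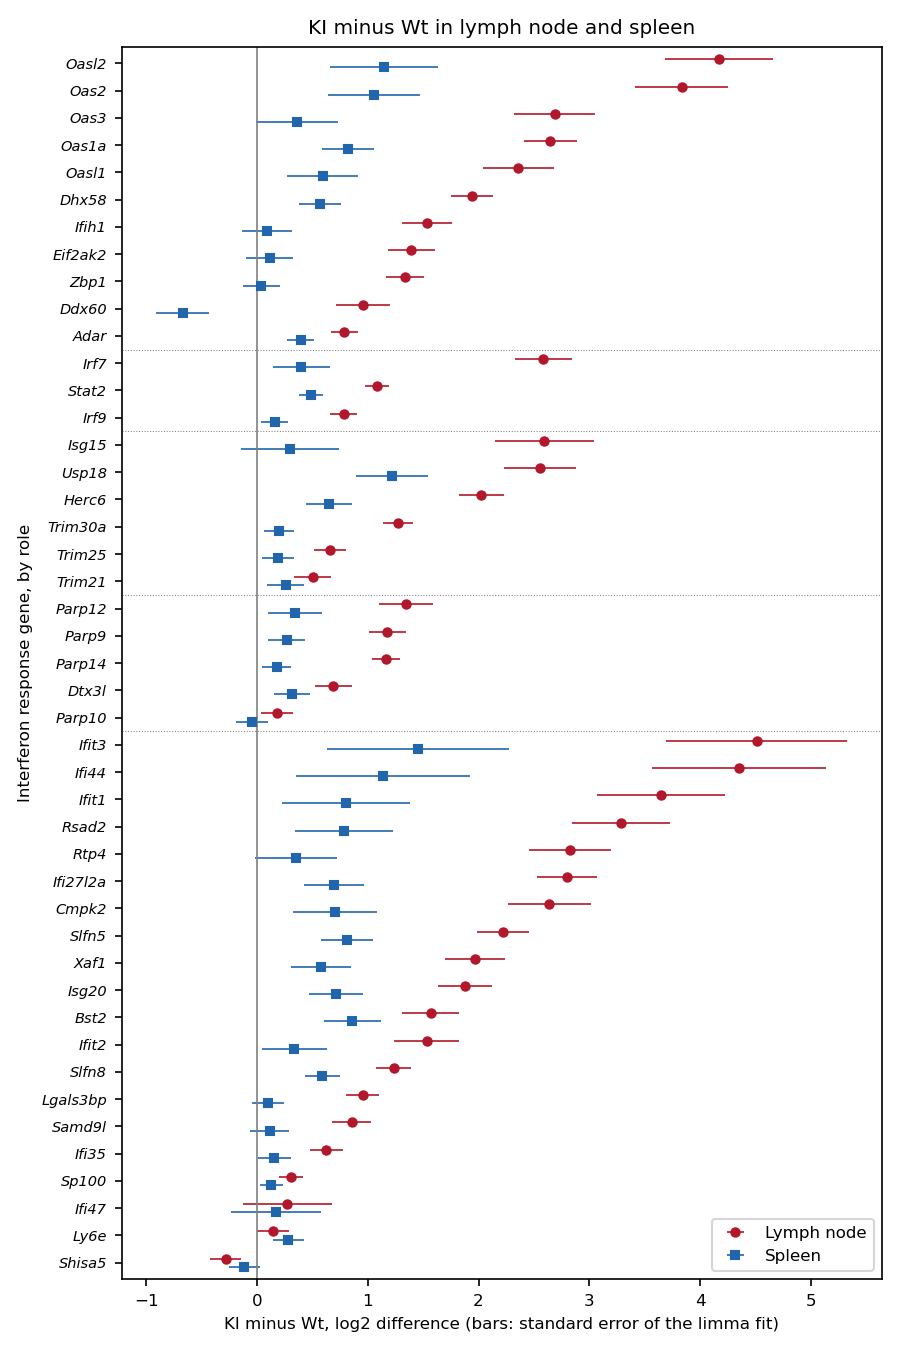
KI minus Wt difference in lymph node (red circles) and spleen (blue squares) for the 45 genes, by role; bars are the standard error of the limma fit. The lymph node value is the larger in 43 of 45 genes; Ly6e and Shisa5, at the bottom, are the exceptions.

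Several response genes lie side by side in the genome. In the order of protein-coding genes on GRCm38.p6, 15 of the 45 fell into runs with at most 5 other genes between neighbours. The Ifit genes on chromosome 19 differed by 1.53 (Ifit2), 4.51 (Ifit3) and 3.65 (Ifit1) in KI minus Wt lymph nodes. The Oas genes on chromosome 5 differed by 3.83 (Oas2), 2.69 (Oas3) and 2.65 (Oas1a). Parp14, Dtx3l and Parp9 on chromosome 16 differed by 1.16, 0.69 and 1.18. All 15 genes in such runs rose, at unequal sizes, as did 40 of the 45 response genes and 13.8% of all genes. Several of them, and Trim30a, have close paralogs, and the sources used here do not state how shared reads were counted, so their separate values are less certain.

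Genes with and without a promoter match differed to a similar extent. Those with an ISRE core had a median KI minus Wt difference of 1.46 in lymph nodes (range -0.28 to 4.51), and those with a window but no core had 1.53 (range 0.27 to 4.17). Oas1a and Ifit3, shown above with 2 and 3 cores, rose by 2.65 and 4.51, and Oasl2, which has none in its window, by 4.17.

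In spleen the same list differed far less. Of the 45 genes, 6 rose in KI against Wt spleens and none fell, with a median difference of 0.35, a 1.28-fold change. Among all genes 7.63% were called higher and 9.21% lower, so the share of response genes called, 6 of 45, was not far above the background. The calls over all genes were 830 higher and 1003 lower in the authors' scaling and 1419 and 770 without immunoglobulin and haemoglobin genes. The 6 were Usp18, Oas1a, Slfn5, Slfn8, Stat2 and Adar. An unadjusted p under 0.05 was found for 13 of the 45 and for 32.4% of all genes, so that count did not exceed the background. Both KI spleens lay above both Wt spleens for 33 of the 45, against 34.4% of all genes, and 42 of the 45 differences were positive, against 50.7% of all genes. None of the 45 had its lowest KI value more than 2-fold above its highest Wt value, against 1.89% of all genes.

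Usp18 had 334 and 469 in KI spleens, 171 in the Tg spleen and 173 and 167 in Wt spleens (1.22 ± 0.33, limma adjusted p = 0.0358). Oas1a had 304 and 367 in KI, 246 in Tg and 188 and 189.6 in Wt spleens (0.82 ± 0.24, limma adjusted p = 0.0369). Stat2 had 2667 and 2769.9 in KI, 1917 in Tg and 1997 and 1878 in Wt spleens (0.49 ± 0.11, limma adjusted p = 0.0133). In all 3 the KI spleens lay above the Tg and Wt spleens. Against Wt alone, both KI spleens lay above for 34.4% of all genes. The Schlafen genes were at 0.81 ± 0.24 (Slfn5) and 0.59 ± 0.15 (Slfn8), and Adar at 0.40 ± 0.12 (limma adjusted p = 0.0493, 0.0261 and 0.0494).

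Several genes with large lymph node differences were near the Wt level in KI spleens. Irf7 had 1228 and 1545 in KI and 1007 and 1081 in Wt spleens (0.40 ± 0.25, limma adjusted p = 0.315), and Isg15 had 122 and 159 in KI and 105 and 122 in Wt spleens, which overlapped. Zbp1 overlapped as well, at 815 and 906 in KI and 791 and 886 in Wt spleens. Ddx60 lay the other way: it had 174 and 161 in KI, 269 in Tg and 285 and 251 in Wt spleens (-0.67 ± 0.24, limma adjusted p = 0.0806). The other negative differences were those of Shisa5 (-0.12) and Parp10 (-0.04), both with overlapping groups, and both of the opposite sign without KI spleen 5 (0.06 and 0.04). Without any 1 of the 4 KI and Wt spleens no response gene was called, while 2.18% to 2.97% of all genes were called higher. With KI and Wt spleens fitted alone 14 response genes were called higher and 1 lower, against 10.6% and 11.9% of all genes.

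**Figure D4:**
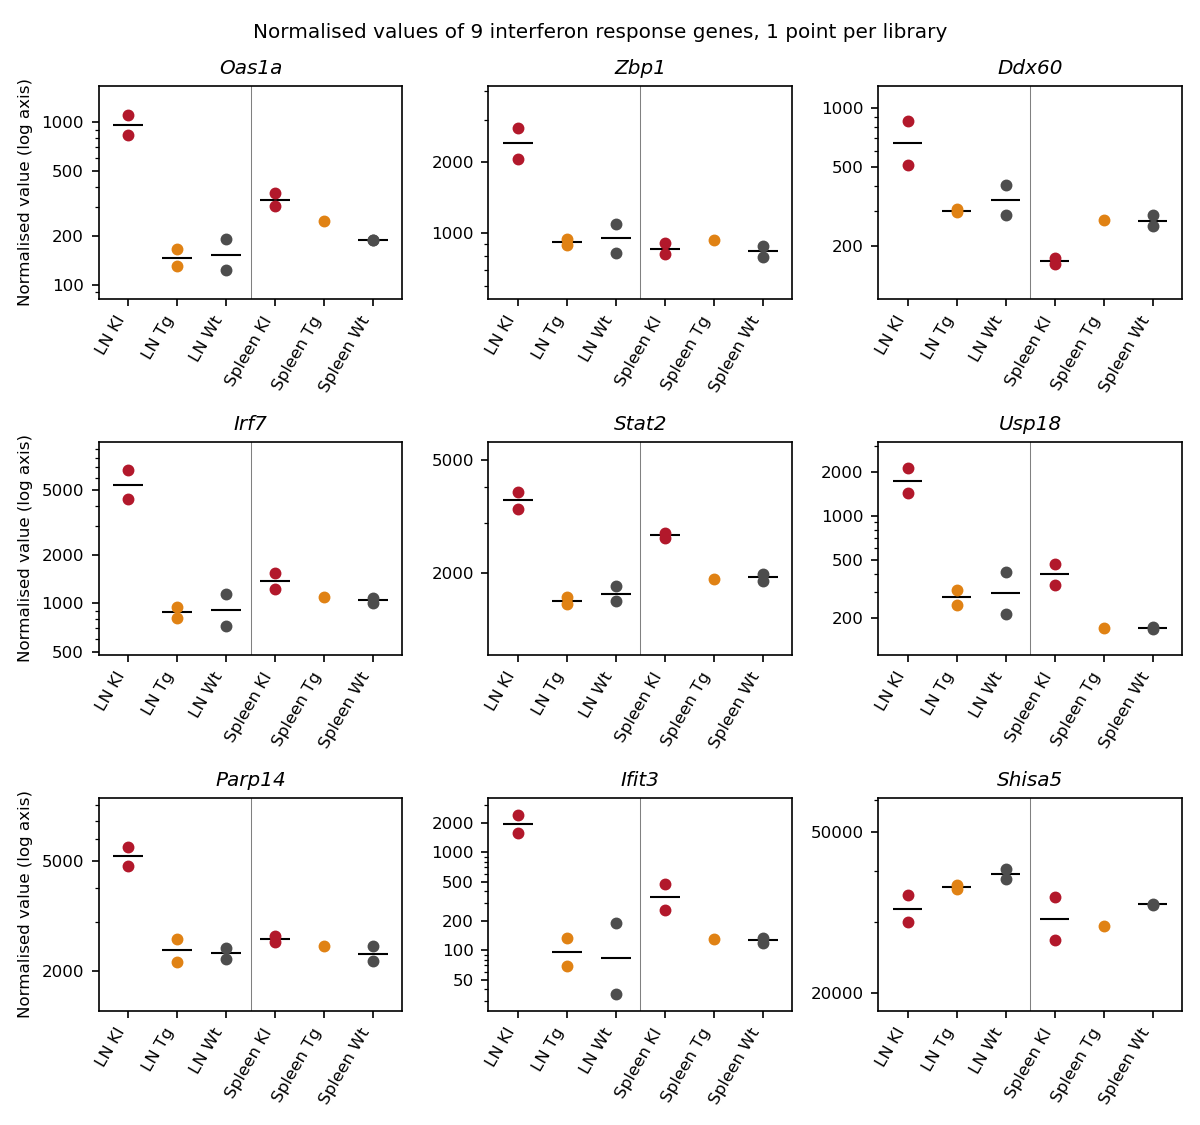
Normalised values (log axis) of 9 response genes, 1 point per library and a line at the group mean on the log scale, for LN and spleen of KI, Tg and Wt mice. LN KI points stand apart upwards for every gene but Shisa5; for Oas1a, Stat2 and Usp18 the spleen KI points are also above spleen Wt, and for Ddx60 they are below.

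The difference between the tissues was tested directly, as the KI minus Wt difference in lymph node minus that in spleen. It was positive for 43 of 45 genes, against 48.5% of all genes, with a median of 1.28, and 6 genes were called higher and none lower, against 0.763% and 0.193% of all genes. The 6 were Irf7 (2.19 ± 0.36), Oas1a (1.83 ± 0.33), Dhx58 (1.38 ± 0.27), Zbp1 (1.30 ± 0.24), Trim30a (1.08 ± 0.19) and Parp14 (0.99 ± 0.18), with limma adjusted p between 0.0332 and 0.0452. In all, 37 of the 45 had an unadjusted p under 0.05, against 14.6% of all genes. With the mouse as a fixed block, which compares the 2 tissues within each mouse, 22 response genes were called higher, against 4.41% of all genes. The call rests on few libraries: none of the 45 was called without LN KI mouse 6 or any 1 of the 4 KI and Wt spleens, 2 were without LN Wt mouse 2, and 12 without LN Wt mouse 1, where 0.79% and 0.423% of all genes were called higher.

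Within KI mice, lymph node stood above spleen for 44 of the 45 genes (51.3% of all genes), and 32 were called higher and none lower, against 4.78% and 4.49% of all genes. Ly6e was the exception, at -0.39 ± 0.14. Lgals3bp, a secreted glycoprotein, Zbp1 and Ddx60 had the smallest p, with differences of 1.34 ± 0.15, 1.48 ± 0.17 and 1.98 ± 0.24. Without KI mouse 6, 3 response genes were called higher, against 0.266% of all genes, with 1 mouse standing for KI. Within Wt mice none of the 45 was called, against 3.09% of all genes higher and 6.29% lower, and the median was -0.03. An unadjusted p under 0.05 was found for 6 of the 45 and for 23.3% of all genes. The calls over all genes were 336 higher and 685 lower in the authors' scaling and 437 and 560 after quantile normalisation. With the mouse as a fixed block 5 were called higher in lymph node of Wt mice, against 5.06% of all genes.

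Seen mouse by mouse, lymph node exceeded spleen for 44 of 45 genes in KI mouse 5 (median 1.14) and for 44 in KI mouse 6 (median 1.34). It did so for 16 genes in Tg mouse 4 (median -0.22), 34 in Wt mouse 1 (median 0.23) and 14 in Wt mouse 2 (median -0.16). Of all genes, between 48.5% and 54.7% were higher in lymph node in each of these 5 mice. Both KI mice thus lay apart from the other 3, and the 2 Wt mice lay on opposite sides of 0.

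**Figure D5:**
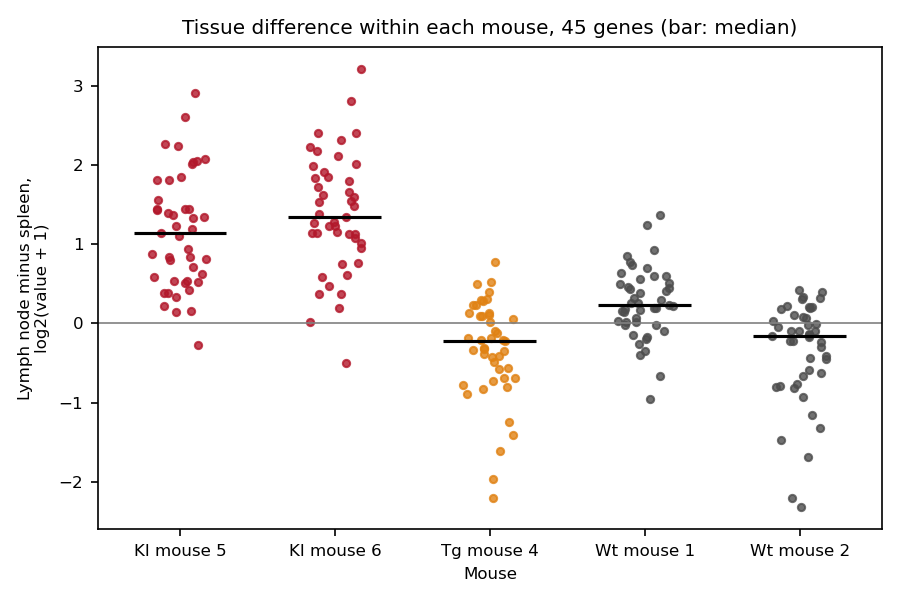
Lymph node minus spleen on the log2(value + 1) scale within each mouse that has both tissues, 1 point per response gene, with a bar at the median. The medians are 1.14 and 1.34 in KI mice, -0.22 in the Tg mouse and 0.23 and -0.16 in Wt mice.

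In Tg mice no response gene was called in either tissue, nor was any other gene of the table (0% higher and 0% lower in lymph node, and 0% and 0% in spleen). In lymph node the Tg minus Wt median was -0.09, 36 of 45 differences were negative, against 55.1% of all genes. Of the 45, Slfn8 and Sp100 (2 genes) had an unadjusted p under 0.05, as had 4.89% of all genes. Slfn8 had 1088 and 1058 in Tg and 1654 and 1244 in Wt lymph nodes (-0.42 ± 0.15, limma adjusted p = 0.96). Both Tg libraries lay below both Wt libraries for 4 genes (Slfn8, Sp100, Samd9l and Shisa5), against 14.6% of all genes. Ifit1 had 56.6 and 32.9 in Tg and 163 and 45.9 in Wt lymph nodes, groups that overlapped (-0.99 ± 0.58). In spleen, with 1 Tg library, the median was 0.07 and Trim25 alone had an unadjusted p under 0.05, as had 1.51% of all genes (0.41 ± 0.18, limma adjusted p = 0.999821). These tests do not show that Tg and Wt mice have equal levels.

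Set against Tg instead of Wt, KI lymph nodes gave 41 genes higher and none lower, against 14.5% and 12.2% of all genes, with a median of 1.73. The KI libraries are the same in both comparisons. Sp100 was called here, with 10524 and 10822 in KI and 7580.2 and 6887 in Tg lymph nodes (0.56 ± 0.11, limma adjusted p = 0.00354). Ifi44 (5.38 ± 0.79) and Ifit1 (4.64 ± 0.58) had the largest differences. Scaled without immunoglobulin and haemoglobin genes, the calls over all genes were 2097 higher and 994 lower, where the authors' scaling gave 1580 and 1330.

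Mice of 1 genotype also differed in the response genes, in the same direction for most of them in KI and in Wt lymph nodes but not in Tg lymph nodes. In KI lymph nodes mouse 6 exceeded mouse 5 for 43 of the 45 genes (median 0.36), against 47.1% of all genes. In Tg lymph nodes mouse 4 exceeded mouse 3 for 22 of the 45 (median -0.02), against 50.6% of all genes. In Wt lymph nodes mouse 2 exceeded mouse 1 for 4 of the 45 (median -0.41), against 45.9% of all genes, and 8 genes differed more than 2-fold, against 3.12% of all genes. In spleen the mouse 6 value was the higher for 34 of 45 in KI, against 54.9% of all genes, and the mouse 2 value for 30 of 45 in Wt, against 53.0% of all genes. The lymph node difference between genotypes, at a median of 1.53, exceeded this spread between mice.

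Other genes of the pathway behaved less uniformly in KI lymph nodes. Of a list of 14 interferon genes and related cytokines, 2 were in the table and 12, among them Ifnb1 and the interferon alpha genes, were not analysed here. Ifng, the type II interferon, had 50.5 and 29.9 in KI and 62.9 and 72.2 in Wt lymph nodes (-0.78 ± 0.39, limma adjusted p = 0.171), and 33.4 and 35.8 in KI against 234 and 159.7 in Wt spleens, where it fell (-2.45 ± 0.39, limma adjusted p = 0.00305). Il21, a cytokine of follicular helper T cells, was not called in either tissue (2.09 ± 0.84 in lymph node and -1.30 ± 0.84 in spleen).

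Of 15 receptors and proximal signalling genes, 4 fell in KI lymph nodes and 3 in KI spleens, against 12.2% and 9.21% of all genes. The kinase Jak1 was lower in lymph node, with a difference of -0.52 ± 0.10, and so was Ifngr2, a chain of the interferon gamma receptor, at -1.07 ± 0.18. The type I receptor chains were not called, at -0.30 ± 0.11 for Ifnar1 and -0.09 ± 0.14 for Ifnar2.

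Of 29 genes of nucleic acid sensing and interferon induction, 10 rose and 3 fell in KI lymph nodes, against 13.8% and 12.2% of all genes. The median was -0.01. Tlr7, the endosomal receptor for single-stranded RNA, had 794 and 1050.4 in KI, 211 and 181 in Tg and 219 and 168 in Wt lymph nodes (2.24 ± 0.19, limma adjusted p = 4.71e-05). Its values in spleen were 542 and 522 in KI and 452 and 358 in Wt mice, and the difference between tissues was called (1.84 ± 0.27, limma adjusted p = 0.0185). Tlr4, the endotoxin receptor, and the DNA sensor Ifi204 rose by 1.54 ± 0.20 and 2.42 ± 0.37. Samhd1, a nucleotide hydrolase that restricts viruses, rose in lymph node (0.74 ± 0.11) and spleen (0.53 ± 0.11). It was 1 of 2 genes of the list called higher in spleen, against 7.63% of all genes.

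The GTPases induced mainly by interferon gamma rose in part. In KI lymph nodes 9 of 17 were called higher and none lower, against 13.8% and 12.2% of all genes, with a median of 0.67. In spleen 1 was called higher and 1 lower, against 7.63% and 9.21% of all genes, with a median of -0.21. Irgm1 had 2138 and 2369 in KI and 1053 and 981 in Wt lymph nodes (1.15 ± 0.15, limma adjusted p = 0.000432), and Iigp1 differed by 1.89 ± 0.31. Gbp6 and Gbp9 differed by 1.38 ± 0.25 and 0.75 ± 0.13 in lymph node, and for both the difference between tissues was called (1.80 ± 0.35 and 0.92 ± 0.18). The guanylate-binding genes are close paralogs, so reads may be split between them. In their RefSeq windows 10 of 11 held an ISRE core (90.9%) and 6 of 11 a gamma-activated core (54.5%). MHC class I presentation genes, which interferons of both types induce, had 1 of 21 called higher in KI lymph nodes, H2-T23 (0.75 ± 0.21), and none lower. Of all genes, 13.8% were called higher there and 12.2% lower. The median of the MHC class I genes was -0.09.

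The cell makeup of KI lymph nodes differed as well, and in bulk tissue more cells of a type and more RNA per cell cannot be told apart. All 10 plasma cell markers rose, and their summed value was 152108 and 156867 in KI, 13287 and 10204 in Tg and 7839 and 9599 in Wt lymph nodes. Germinal centre markers rose for 8 of 9, with sums of 23478 and 18248 in KI, 7098 and 5966 in Tg and 3907 and 3772 in Wt lymph nodes. T cell markers fell for 9 of 10, to sums of 28922 and 37823 in KI against 69486 and 65979.7 in Wt lymph nodes. Macrophage and monocyte markers fell for 8 of 14 and rose for 2. Of all genes, 13.8% were called higher in KI lymph nodes and 12.2% lower.

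The plasma cell, germinal centre and T cell shifts were present in spleen too, and the macrophage shift was not. In spleen 8 of 10 plasma cell markers rose, with sums of 133168 and 82333 in KI and 21265 and 21619 in Wt spleens. There 4 of 9 germinal centre markers rose and 7 of 10 T cell markers fell. Of all genes, 7.63% were called higher in KI spleens and 9.21% lower. None of the 14 macrophage and monocyte markers was called in KI spleens, where 1 had an unadjusted p under 0.05 and the median was 0.28, and the difference between tissues was called lower for 5 of the 14, with a median of -1.55. Response genes, as given above, had a median of 0.35 in that tissue. KI mouse 6 had the higher response gene values in lymph node and the lower immunoglobulin share, 6.77% of the signal against 9.46% in KI mouse 5. Its germinal centre sum was also lower, at 18248 against 23478. Its sums were higher for plasma cells (156867 against 152108), T cells (37823 against 28922) and macrophages and monocytes (6229 against 4001). Most of the plasma cell sum was Jchain (128795 against 122650). Most of the macrophage and monocyte sum was Ly6c2 (4698 against 2398). The other genes of these 2 lists went either way between the 2 mice. The part of these cell types in the response gene differences was not tested.

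Of 10 plasmacytoid dendritic cell markers, 3 rose in KI lymph nodes and 1 fell, against 13.8% and 12.2% of all genes. The sums were 16216 and 17447 in KI, 11219 and 11601 in Tg and 10808 and 11006 in Wt lymph nodes. Most of the higher sum lay in Spib and Tcf4, a pair of factors these cells share with B cells. Spib had 8454 and 6845 in KI and 4360.4 and 4505 in Wt lymph nodes (0.78 ± 0.12), and Tcf4 3597 and 3308 in KI and 1143 and 1289.8 in Wt (1.51 ± 0.13). Klk1 rose by 3.52 ± 0.63, while Pacsin1 was lower, at -0.50 ± 0.12, and Ccr9, at -0.88 ± 0.37, was not called. Siglech, the most specific marker of the list, had 320.5 and 1555 in KI and 332 and 132 in Wt lymph nodes, which overlapped (1.75 ± 0.85, limma adjusted p = 0.204). KI mouse 6, with the higher response gene values in lymph node, also had more Siglech there than KI mouse 5. The same held for Klk1 (532 against 166) and Ccr9 (885 against 373). Spib and Tcf4 alone of the list were lower in KI mouse 6. No marker of the list was at 0 in any library. In spleen the sums were 19269 and 20074 in KI and 16918 and 16101 in Wt mice, and Siglech had 714 and 803 in KI and 346 and 173 in Wt spleens. The part of these cells in the response gene differences was not tested.

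Erythroid and neutrophil markers varied widely between mice of 1 genotype. In spleen erythroid markers summed to 25772 and 2910.3 in KI and 999 and 659 in Wt mice. Both KI spleens lay above both Wt spleens for 7 of 7 of them, against 34.4% of all genes, with a median difference of 3.47. Neutrophil markers summed to 1628 and 5701 in KI, 40512 in Tg and 5455 and 46716 in Wt spleens. No erythroid or neutrophil marker was called between KI and Wt in either tissue. In lymph nodes Ly6g was at 0 in KI mouse 5, Tg mouse 3 and Wt mouse 1, and the neutrophil sum of Wt mouse 2, 1661, stood above that of Wt mouse 1, 82.2. Wt mouse 1 was the Wt lymph node with the higher response gene values.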

How the data were processed

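RNA-seq of 11 libraries from 6 mice was analysed from a deposited table of normalised signal for 10885 genes. Per the submitters' processing notes, FastQC 0.11.5, STAR 2.5, featureCounts, Subread 1.4.6, DESeq2 1.26.0 and GRCm39 were used, with no role or order; annotation release and strand setting are not given in the sources used here. Each deposited signal is a gene count divided by 1 factor per library: 100% of values were whole multiples of 1 step within 0.05 reads. Every gene reached at least 109 in some library, and weaker genes were not analysed.

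The plan had been edgeR on counts. As the values are normalised, limma-trend 3.58.1 (R 4.3.3, robust empirical Bayes) was fitted to log2(value + 1) with 6 group means over all 11 libraries, leaving 5 residual degrees of freedom, and checked on simulated data. The single Tg spleen was taken to vary as the replicated groups do. Genes were called at an adjusted p (Benjamini-Hochberg, all genes) under 0.05. LN reads passed a further whole-read check and were also tested with edgeR 4.0.16 and DESeq2 1.42.0.

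Replicate numbers are the labels' mice and pair LN with spleen; deviations of the 2 tissues of a mouse correlated at 0.900 over genes in KI and 0.403 in Wt. The mouse was fitted as a block in alternatives (consensus correlation 0.0168, statmod 1.5.0). Other alternatives were pseudocounts, a filter on low values, other scalings, the compared groups alone, and leaving out each library or mouse.

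The members, gene lists and tests were chosen with earlier results of these data known. Per-library values are given for up to 4 genes a role with the smallest p in KI minus Wt lymph node, and for genes against the common direction; Oasl2, Ifit1, Ifit3, Ifi44, Ly6e, Sp100 and Ifi47 were added after their values were seen. Promoter windows and gene order came from RefSeq on GRCm38.p6, which is another build than the files', so no position of the files' genes is given. For the receptors and proximal signalling genes, the genes called higher are not reported here.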

Additional observations from a re-analysis of the deposited data

Results flagged for a closer look

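The genotype difference was not the same in both tissues for 9 genes. In each the interaction was called (limma, adjusted p under 0.05 over all 10885 genes). The interaction is KI minus Wt in lymph node minus KI minus Wt in spleen. In each, both KI lymph nodes lay above both Wt lymph nodes, as for 32% of all genes. The response genes were Irf7 (2.19), Oas1a (1.83), Dhx58 (1.38), Zbp1 (1.30), Trim30a (1.08) and Parp14 (0.99). The other genes of the pathway were Tlr7 (1.84), Gbp6 (1.80) and Gbp9 (0.92). Of these 9, Oas1a alone was also called in spleen, and Gbp6 and Gbp9 were lower in KI than in Wt spleens without being called there, at -0.42 and -0.18. No group held 4 libraries, so single libraries were not tested as outliers.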

How the results depend on the processing

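In KI minus Wt lymph nodes the number of response genes called stayed between 33 and 41 in every setting (34 to 41 with a library or mouse left out). Of the 40 genes, 29 were called in all settings; Bst2, Ddx60, Dtx3l, Ifi35, Ifit1, Ifit3, Isg15, Rtp4, Samd9l, Trim21 and Trim25 were not. On recovered reads edgeR called 38 and DESeq2 40. Against Tg lymph nodes 36 to 42 were called. In spleen 6 became 15 when KI and Wt spleens were fitted alone, and 0 to 9 with a library or mouse left out. The interaction gave 0 to 12 with a library or mouse left out and 22 with the mouse as a fixed replicate block. Lymph node minus spleen in Wt mice gave 2 with these groups alone, 0 to 3 with a library or mouse left out and 5 under the fixed block; in KI mice it gave 3 to 35 with a library or mouse left out. The share of all genes called shifted between settings too. With the groups alone, KI minus Wt spleens had 10.6% of all genes higher and 11.9% lower, against 7.63% and 9.21% in the main fit. Under the fixed block the share called higher was 4.41% for the interaction, against 0.763%, and 5.06% for the Wt tissue difference, against 3.09%. Changed counts of response genes thus came with changed counts over all genes. Whether the response genes shifted more than the rest was not tested. The cause of these shifts was not tested. The pairing by mouse, fitted as a random replicate block, changed no other call count by more than 1.5 times. The counts were 40 in KI minus Wt lymph node, 6 in spleen and 7 for the interaction. With a consensus correlation of 0.0168 that fit was close to the unblocked one, so it cannot show whether the pairing matters. Both Tg minus Wt comparisons stayed at 0 in every setting.

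Many single-gene differences changed sign in some setting, but none that was called in the main fit did so. In Tg minus Wt lymph node most response genes changed sign, and in KI minus Wt lymph node Shisa5 alone. Zbp1 in KI minus Wt spleen changed sign in 4 of 25 settings, and Ifi47 in the interaction in 5 of 26. Within a selected set of single-gene differences, 5 changed sign, and their values follow. Shisa5 was at 0.0513 (KI minus Wt lymph node), 0.0203 (spleen) and 0.0310 (interaction) after quantile normalisation. With a library or mouse left out it ranged from -0.29 to 0.0568 in spleen and from -0.34 to 0.00636 in the interaction. Parp10 in spleen was at 0.0473 when scaled without immunoglobulin and haemoglobin genes, and ranged from -0.13 to 0.0401 with a library or mouse left out. Ifi44 in Tg minus Wt lymph node ranged from -2.20 to 0.144, the highest without Tg mouse 4. LN and spleen KI and Wt had 2 mice each, so omitting 1 left a lone library taken to vary as the other groups do. Genes under a value of 109 in all libraries were not examined.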

Other observations

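Against Tg lymph nodes, 11 of the 17 interferon gamma GTPases were higher in KI lymph nodes and 1 lower, with a median of 1.01, and 4 of 21 MHC class I presentation genes were higher and 1 lower, with a median of 0.14. In Tg minus Wt lymph nodes 16 of the 17 GTPases had a negative difference, against 55.1% of all genes, with a median of -0.26. None was called by limma, while 3 had an unadjusted p under 0.05, against 4.89% of all genes. Among all genes 14.5% were higher and 12.2% lower in KI than in Tg lymph nodes.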
